A study of Mus musculus with 18 samples.

Results

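The visual cycle genes of the retinal pigment epithelium (RPE) were examined as a named set of 9 genes, out of 47729 genes in the count table and 18958 genes with enough counts to be tested. The genes were listed by name for their roles, with earlier results of these data known, and all 9 passed the filter on low counts. It holds the isomerase *Rpe65*, the acyltransferase *Lrat*, the retinol dehydrogenases *Rdh5*, *Rdh10* and *Rdh11*, the retinaldehyde-binding protein *Rlbp1*, the opsins *Rgr* and *Rrh*, and the retinol uptake receptor *Stra6*.

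All animals were *rd1* mice, whose rods die because of a mutation in the rod phosphodiesterase gene *Pde6b*, and all were taken at P40. In each of 9 mice, 1 eye had been given AAV-Best1-Nrf2, which carries the human Nrf2 cDNA, with AAV-Best1-GFP. The other eye of the mouse, called the control, had been given AAV-Best1-GFP alone. By the study's methods, the total vector dose was higher where both vectors were injected, and the vectors differed in capsid. These differences go with the group, and their part in the results was not tested. Both vectors use the human Best1 promoter, which drives expression in the RPE. RNA was taken from the eyecup after the retina had been removed and was amplified with a low-input kit, so the libraries can also hold RNA of other eye cells.

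The visual cycle rebuilds the light-sensitive chromophore 11-cis-retinal after light has turned it to the all-trans form. In the RPE, retinol is esterified by LRAT, the ester is turned to 11-cis-retinol by RPE65, and retinol dehydrogenases oxidize the product, which is carried by the binding protein CRALBP (*Rlbp1*). RGR and peropsin (*Rrh*) are opsins of the RPE, and STRA6 takes up retinol from its carrier in blood. CRALBP and RGR are also made by Müller glia of the retina.

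The stretches upstream of *Rpe65*, *Rlbp1* and *Rgr* are shown because these 3 genes were lower with Best1-Nrf2 and hold matches to the motifs searched. Each runs 5′ to 3′ on the strand of the gene, from RefSeq on GRCm38.p6, and covers 220 bases that end 30 bases short of the RefSeq start. They lie at chr3:159598931-159599150 (plus strand, *Rpe65*), chr7:79387058-79387277 (minus strand, *Rlbp1*) and chr14:37049045-37049264 (minus strand, *Rgr*). Capitals mark the M-box core CATGTG, the homeodomain core TAATCC and the SOX core ACAAAG, or the same letters read on the other strand.
Rpe65: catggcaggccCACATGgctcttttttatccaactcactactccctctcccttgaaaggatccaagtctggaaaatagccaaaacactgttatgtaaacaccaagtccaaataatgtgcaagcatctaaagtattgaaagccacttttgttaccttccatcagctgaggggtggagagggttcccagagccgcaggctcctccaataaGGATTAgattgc
Rlbp1: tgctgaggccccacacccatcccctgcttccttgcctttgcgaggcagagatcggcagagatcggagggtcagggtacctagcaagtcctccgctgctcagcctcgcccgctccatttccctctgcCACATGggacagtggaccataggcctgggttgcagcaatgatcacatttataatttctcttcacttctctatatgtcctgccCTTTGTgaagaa
Rgr: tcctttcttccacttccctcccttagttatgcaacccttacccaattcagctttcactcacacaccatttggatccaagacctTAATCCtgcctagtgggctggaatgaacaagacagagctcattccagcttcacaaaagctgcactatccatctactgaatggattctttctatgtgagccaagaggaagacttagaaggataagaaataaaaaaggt

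Motifs were searched on both strands of the 250 bases before 12 RefSeq starts of 8 of the genes, and on 32851 mouse starts in all. CATGTG, the core of the M-box bound by MITF, was found upstream of *Rpe65* and *Rlbp1*, and in 12.3% of all starts. TAATCC, a core bound by OTX2 and CRX, was found upstream of *Rpe65* and *Rgr*, and in 6.25% of all starts. ACAAAG, a core bound by SOX proteins, was found upstream of *Rlbp1*, *Rrh* and *Stra6*, and in 16.5% of all starts. CACGTG, an E-box, was found at a start of *Rdh11* and in 6.02% of all starts. The antioxidant response element core TGACNNNGC, the motif through which NRF2 acts, was in 0 of the 12 windows and in 10.2% of all starts. These matches are letters in short windows, and binding was not measured.

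The labels were first checked with *Nfe2l2*, the mouse gene for Nrf2. Its level, as CPM (the count of a gene relative to the scaled total of its library), was 76.7 to 134 in controls, with a median of 83.0, and 275 to 704 CPM with Best1-Nrf2, with a median of 457. The groups did not overlap, and the log2 fold change was 2.29 (SE 0.21, adjusted p = 6.21e-05, edgeR's quasi-likelihood test). Gene-level counts cannot part the mouse transcript from reads of the human cDNA that matched it. Library totals were 18956748 to 44054836 counts in controls and 32839893 to 49598700 with Best1-Nrf2. The labels call the samples RPE cells, and all 31 RPE markers outside the retinoid genes were detected, with a summed level of 8048 to 25706 CPM in controls and 10864 to 25514 CPM with Best1-Nrf2. Control 8 stood apart from the other controls, with the lowest level of all 9 visual cycle genes.

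Of the 9 visual cycle genes, 6 were lower with Best1-Nrf2 and 0 were higher, with a threshold of 0.05 on the adjusted p of the model that pairs the eyes. Of all genes tested, 1.13% were lower and 3.12% were higher. The median log2 fold change of the 9 genes was -1.04, beside -0.03 over all genes tested. Together the 9 genes took 0.588% to 2.99% of the scaled library total in controls (median 2.02%) and 0.447% to 1.16% with Best1-Nrf2 (median 0.778%). The isomerase and the acyltransferase had the largest falls, while the uptake receptor and peropsin did not pass the test. In such bulk samples, fewer cells of a type and less RNA per cell cannot be told apart from the level of a gene alone. The 31 RPE markers outside the retinoid genes had a median of -0.25 on the same scale. With their average as a covariate 3 of the 9 genes passed, and *Rpe65* was at -2.66. With the average of rod and cone markers as a covariate 0 of the 9 genes passed, and *Rpe65* was at -1.53 (edgeR adjusted p = 0.224).

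**Figure D1:**
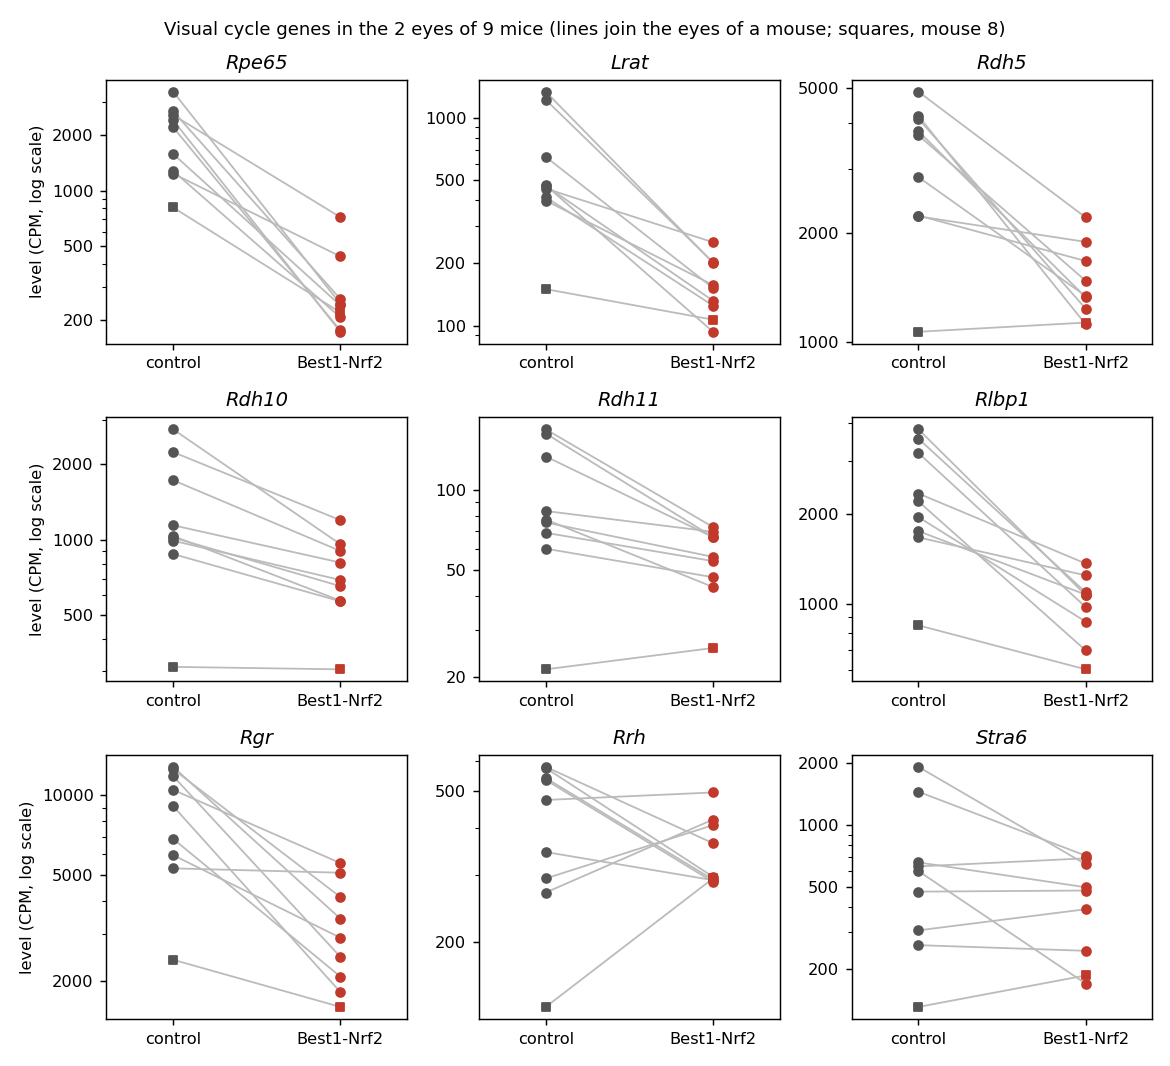
Level of each visual cycle gene (CPM, log axis) in the control eye and the Best1-Nrf2 eye of 9 mice, with a line joining the eyes of a mouse and squares for mouse 8. *Rpe65* lies between 810 and 3429 CPM in controls and between 172 and 718 CPM with Best1-Nrf2, with no overlap, while the lines of *Rrh* and *Stra6* run in both directions.

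RPE65 is the isomerohydrolase that makes 11-cis-retinol, and its gene (ENSMUSG00000028174; GRCm38, chr3:159599175-159625321, plus strand, 16 exon blocks; positions of the other genes are on the same build) showed the largest change of the set. *Rpe65* ranged from 810 to 3429 CPM in controls, with a median of 2201, and from 172 to 718 CPM with Best1-Nrf2, with a median of 239. It was the 1 gene of the set whose groups did not overlap, as was so and lower for 0.116% of all genes tested. The log2 fold change was -2.81 (SE 0.31, adjusted p = 0.000241), a fitted level of 14.3% of control. Within mice the difference ran from -3.81 in mice 5 and 9 to -1.49 in mouse 6. The highest Best1-Nrf2 eyes were those of mice 3 and 6.

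LRAT, lecithin retinol acyltransferase, makes the retinyl esters that RPE65 uses. *Lrat* (ENSMUSG00000028003; chr3:82892579-82903973, minus strand) ranged from 150 to 1330 CPM in controls, with a median of 470, and from 93.6 to 252 CPM with Best1-Nrf2, with a median of 152. It fell in 9 of 9 mice, and the groups overlapped through control 8 alone. The log2 fold change was -1.78 (SE 0.25, adjusted p = 0.00139), or 29.1% of control. The difference within a mouse was smallest in mouse 8, at -0.48, and largest in mouse 1, at -2.72.

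The 3 retinol dehydrogenases changed less than *Rpe65* and *Lrat* in the same mice (exact permutation tests, highest adjusted p = 0.0156). RDH5 oxidizes 11-cis-retinol to 11-cis-retinal. *Rdh5* (ENSMUSG00000025350; chr10:128913593-128922888, minus strand) ranged from 1067 to 4888 CPM in controls, with a median of 3708, and from 1119 to 2204 CPM with Best1-Nrf2, with a median of 1339. It was lower in 8 of 9 mice, and control 8 was below every Best1-Nrf2 eye. Its log2 fold change was -1.04 (SE 0.25, adjusted p = 0.0389). *Rdh5* shares 720 exonic bases, 25.6% of its exonic length, with *Bloc1s1* on the same strand, so its counts are uncertain.

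RDH10 oxidizes retinol and also serves retinoic acid synthesis. *Rdh10* (ENSMUSG00000025921; chr1:16105774-16133734, plus strand) ranged from 311 to 2759 CPM in controls, with a median of 1035, and from 304 to 1197 CPM with Best1-Nrf2, with a median of 691. The groups overlapped, but the Best1-Nrf2 eye was the lower one in 9 of 9 mice. The log2 fold change was -0.73 (SE 0.18, adjusted p = 0.0429), and it did not pass in a model without the mouse as a block (-0.86, adjusted p = 0.238). RDH11 is a retinal reductase and retinol dehydrogenase of broad expression. *Rdh11* (ENSMUSG00000066441; chr12:79174337-79192293, minus strand) was at 21.4 to 168 CPM in controls, with a median of 77.4, and 25.7 to 72.6 CPM with Best1-Nrf2, with a median of 56.2. Its log2 fold change of -0.61 (SE 0.18, adjusted p = 0.0973) did not pass the test, although the Best1-Nrf2 eye was lower in 8 of 9 mice.

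CRALBP binds 11-cis-retinoids and hands them on. *Rlbp1* (ENSMUSG00000039194; chr7:79374870-79387048, minus strand) ranged from 847 to 3824 CPM in controls, with a median of 2196, and from 604 to 1363 CPM with Best1-Nrf2, with a median of 1070. It fell in 9 of 9 mice, with overlap only through control 8. The log2 fold change was -1.16 (SE 0.22, adjusted p = 0.00951), or 44.7% of control.

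The opsins parted from each other. RGR is an opsin that binds all-trans-retinal, and its gene is *Rgr* (ENSMUSG00000021804; chr14:37034909-37048964, minus strand). It ranged from 2405 to 12804 CPM in controls, with a median of 9109, and from 1598 to 5561 CPM with Best1-Nrf2, with a median of 2911. It fell in 9 of 9 mice, but by only 0.05 on the log2 scale in mouse 6, and the groups overlapped also without mouse 8. The log2 fold change was -1.38 (SE 0.29, adjusted p = 0.0158).

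Peropsin, the product of *Rrh* (ENSMUSG00000028012; chr3:129804408-129822587, minus strand), lies in the microvilli of the RPE. *Rrh* ranged from 135 to 578 CPM in controls, with a median of 473, and from 288 to 495 CPM with Best1-Nrf2, with a median of 297. The Best1-Nrf2 range lay within the control range, and 5 of 9 mice were lower. Its log2 fold change was -0.16 (SE 0.25, adjusted p = 0.897).

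STRA6 is the receptor for retinol-binding protein. *Stra6* (ENSMUSG00000032327; chr9:58063788-58153996, plus strand) ranged from 130 to 1923 CPM in controls, with a median of 597, and from 169 to 710 CPM with Best1-Nrf2, with a median of 480. The spread within each group was wide, and 5 of 9 mice were lower. Its log2 fold change was -0.42 (SE 0.27, adjusted p = 0.610).

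**Figure D2:**
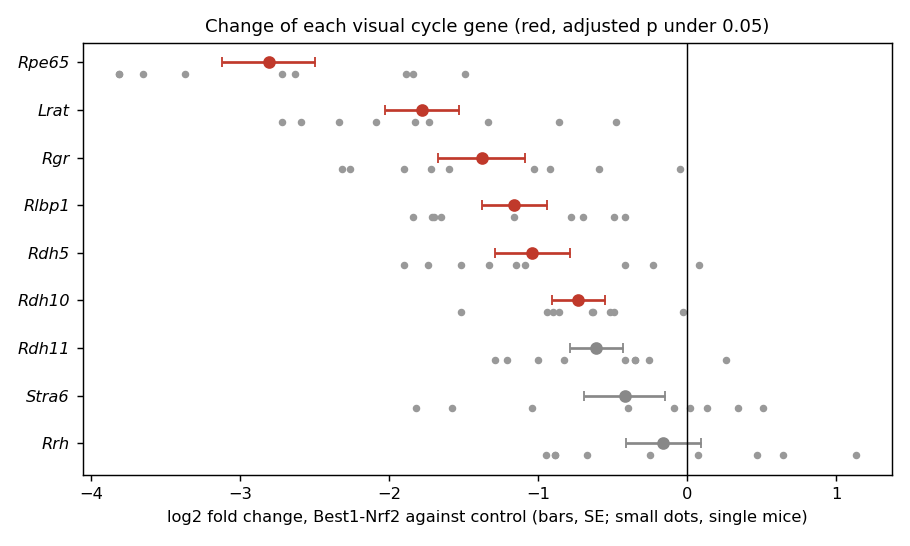
Log2 fold change of each visual cycle gene between Best1-Nrf2 and control eyes, with the SE as bars, red for an adjusted p under 0.05, and the 9 mice as small dots. *Rpe65* lies at -2.81 and *Rrh* at -0.16, with the dots of *Rrh* on both sides of 0.

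Without mouse 8, 4 genes had groups that did not overlap (*Rpe65*, *Lrat*, *Rlbp1* and *Rdh5*), as was so and lower for 0.469% of all genes tested. In all, 5 genes were lower in 9 of 9 mice (*Rpe65*, *Lrat*, *Rlbp1*, *Rdh10* and *Rgr*), beside 1.22% of all genes tested. Mouse 8 gave the smallest fall or the largest rise for 6 genes, and mouse 6 for the other 3, which were *Rpe65*, *Rlbp1* and *Rgr*. *Rpe65*, *Lrat* and *Rlbp1* passed the test whichever mouse was left out. *Rgr* did not pass without mouse 1, 2 or 7 (highest adjusted p = 0.0586). *Rdh5* passed only without mouse 6 or 8 (highest adjusted p = 0.118 over the 9 fits), and *Rdh10* only without mouse 8 (highest adjusted p = 0.146). *Rdh11* passed without mouse 8 (adjusted p = 0.0412).

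RNA of other cells moved with the group. Of 11 cone markers 10 were lower with Best1-Nrf2 (median log2 fold change, -3.25), and their summed level was 308 to 2298 CPM in controls and 57.4 to 557 CPM with Best1-Nrf2. Of 11 rod markers tested, 4 were lower and 1 was higher. The lower ones were *Sag* (-5.03), *Pde6g* (-4.79), *Prph2* (-4.65) and *Gngt1* (-4.34). The higher one was *Rom1* (1.53), with a mean of 146 CPM in controls and 400 CPM with Best1-Nrf2. The summed level of the rod markers, *Rom1* included, was 172 to 951 CPM in controls and 268 to 598 CPM with Best1-Nrf2. The rod factors *Nrl* and *Nr2e3* did not pass the filter. Averaged over the rod and cone markers, the log2 CPM was 3.14 to 5.11 in controls and 0.41 to 3.40 with Best1-Nrf2, so it nearly parted the groups. With that average as a covariate in the paired fit, 0 of the 9 genes and 17 of all genes tested passed, and the median log2 fold change of the 9 genes was -0.38. *Rpe65* was then at -1.53 (adjusted p = 0.224), *Lrat* at -1.04, *Rdh10* at -0.57, *Rlbp1* at -0.38, *Rgr* at -0.35 and *Rdh5* at -0.19. Of the genes that had not passed before, *Stra6* was at -0.85, *Rdh11* at -0.29 and *Rrh* at 0.78. The group and the photoreceptor RNA cannot be told apart in this design. Of 20 macrophage and microglia markers 12 were higher (median log2 fold change, 1.65; summed level, 218 to 555 CPM in controls and 245 to 906 CPM with Best1-Nrf2), and the part of these cells in the result was not tested. Of 13 Müller glia markers 0 were lower and 1 was higher, *Prdx6* at 2.51. Of 11 fibroblast and sclera markers 2 were higher and 1 was lower, and edgeR called 0 of 13 inner retina markers (1 at an unadjusted p under 0.05) and 0 of 11 endothelial markers (0 at an unadjusted p under 0.05).

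The RPE markers outside the retinoid genes were counted beside the set. Of 31 such genes, 3 were lower and 1 was higher, and 11 had an unadjusted p under 0.05 in edgeR's test. The lower ones were *Slc6a20a* (-1.14), a proline transporter, *Ermn* (-0.96), which encodes ermin, and *Gpr143* (-0.74), a melanosomal receptor, and the higher one was *Sulf1* (0.82), a heparan sulfatase. With the mean log2 CPM of the 31 markers as a covariate, *Rpe65* (-2.66, adjusted p = 0.00202), *Lrat* (-1.53, adjusted p = 0.00713) and *Rlbp1* (-1.05, adjusted p = 0.0427) still passed, while *Rgr* (-1.35, adjusted p = 0.0509), *Rdh5* (-0.93, adjusted p = 0.128) and *Rdh10* (-0.56, adjusted p = 0.143) did not.

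Next, the changes of the 9 genes were compared with each other. For each of the 36 pairs, the difference between the 2 genes in their within-mouse log2 change was tested over the 9 mice by an exact permutation test that flips signs (2-sided), for which the smallest possible p is 0.0039. Of the 36 pairs, 23 differed at an adjusted p under 0.05. *Rpe65* fell more than each of the other 8 genes. Against *Lrat*, the next in order, the difference was -1.03 (95% interval, -1.37 to -0.68; exact permutation test, adjusted p = 0.0108; 9 of 9 mice). *Lrat* fell more than *Rlbp1* by 0.62 on the log2 scale (exact permutation test, adjusted p = 0.0156), but its difference from *Rgr* was -0.40, with an interval of -0.83 to 0.04 (exact permutation test, adjusted p = 0.141).

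The opsins differed from each other by -1.23 (*Rgr* minus *Rrh*; 95% interval, -1.49 to -0.96; exact permutation test, adjusted p = 0.0108), with *Rgr* falling more in 9 of 9 mice. Among the dehydrogenases, no pair differed past the threshold. The difference of *Rdh10* from *Rdh11* was -0.12, with an interval of -0.30 to 0.06. *Rdh5* differed from *Rdh11* by -0.43 (interval, -0.89 to 0.04) and from *Rdh10* by -0.31 (interval, -0.75 to 0.13). *Rlbp1* and *Rdh5* lay close, with a difference of -0.13 (interval, -0.36 to 0.11). *Stra6* differed only from *Rpe65* and *Lrat*.

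**Figure D3:**
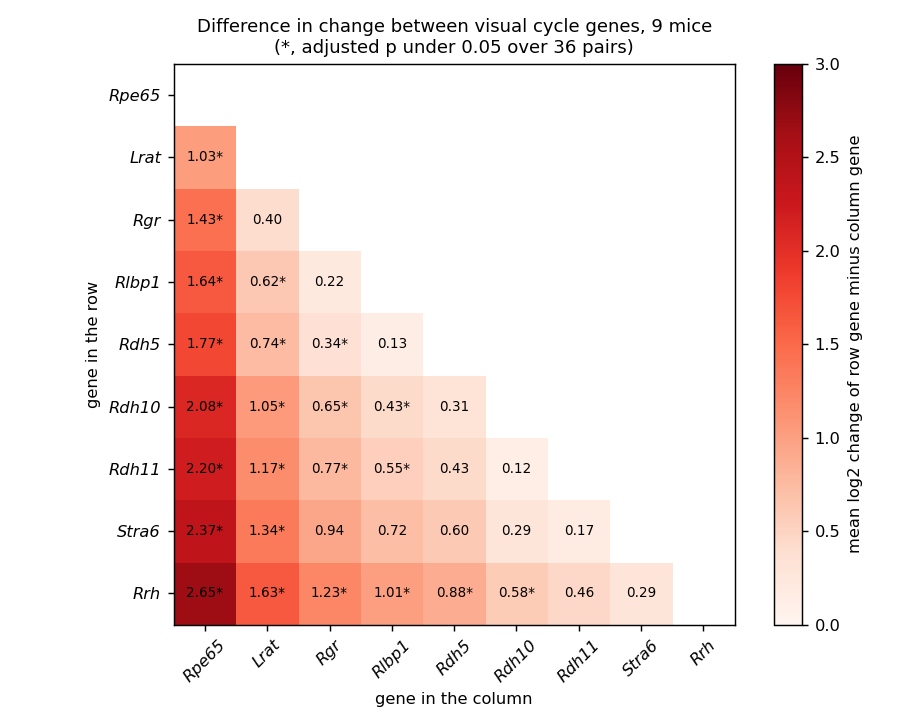
Mean difference in within-mouse log2 change between visual cycle genes, as the gene in the row minus the gene in the column, over 9 mice. An asterisk marks an adjusted p under 0.05, and the column of *Rpe65* holds an asterisk in all 8 cells.

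Levels were also set in order per length, as CPM per exonic kilobase. In controls the mean was 1795 for *Rgr*, 1150 for *Rdh5*, 1045 for *Rpe65*, 801 for *Rlbp1*, 323 for *Rdh10*, 123 for *Stra6*, 115 for *Lrat*, 70.4 for *Rrh* and 27.4 for *Rdh11*. Of the neighbouring pairs in this order, 2 did not differ beyond their spread over the 9 control eyes, namely *Rdh5* and *Rpe65* (exact sign-flip permutation test, adjusted p = 0.170) and *Stra6* and *Lrat* (exact permutation test, adjusted p = 0.637). The other 6 neighbouring pairs differed (exact permutation tests, highest adjusted p = 0.0104). With Best1-Nrf2 *Rpe65* had a mean of 153 and stood at rank 5, after *Rlbp1* and *Rdh10*, and *Lrat*, at 29.5, stood after *Rrh*, at 59.1. The order depends on the length used. Per coding kilobase, *Rpe65* (1210) stood after *Rlbp1* (2306) and *Rdh10* (1314) already in controls, and *Lrat* (890) before *Rrh* (366) and *Stra6* (356), while *Rpe65* had rank 8 with Best1-Nrf2. By that length the neighbours *Rdh10* and *Rpe65* (exact permutation test, adjusted p = 0.922) and *Rrh* and *Stra6* (exact permutation test, adjusted p = 0.348) did not differ beyond their spread.

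**Figure D4:**
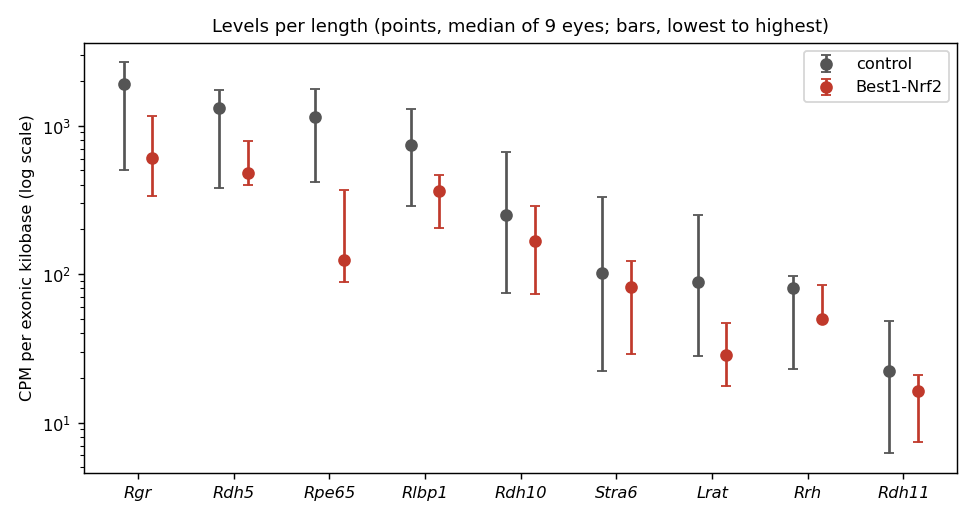
Level per length of each visual cycle gene (CPM per exonic kilobase, log axis), as the median of 9 eyes with bars from the lowest to the highest eye. *Rpe65* has a median of 1138 in controls and 124 with Best1-Nrf2.

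Within groups, most of the genes varied together. After the group means were taken off, the correlation over the 18 libraries had a median of 0.82 over the 36 pairs and ran from 0.13 to 0.97. Each value compares genes within the same libraries, which share depth and dissection, and is a description. By the same measure, over 11786 genes, the genes outside the set most like *Rpe65* included *Mogat1* (r = 0.93), an acyltransferase of acylglycerols, *Ermn* (r = 0.90), *Gm16008* (r = 0.89) and *Fam71e1* (r = 0.89). Likeness within groups is apart from the change between groups. Of those named, *Ermn* was lower with Best1-Nrf2, while *Mogat1* (log2 fold change -0.74), *Gm16008* (-0.45) and *Fam71e1* (0.37) did not pass edgeR's test. *Rgr* (r = 0.88) ranked 10, *Rdh5* (r = 0.85) 20 and *Rrh* (r = 0.85) 22, while *Rdh10* (r = 0.45), *Rdh11* (r = 0.40) and *Stra6* (r = 0.13) ranked far lower.

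*Rdh10* and *Rdh11* were closer to *Lrat* (r = 0.88 and 0.83) and *Rlbp1* (r = 0.87 and 0.83) than to *Rpe65*, and *Stra6* was closest to *Rdh11* (r = 0.91) and *Rdh10* (r = 0.90). The main axis of spread within groups, taken without the 9 genes, held 42% of the variance over 11800 genes, and 6 libraries stood at its high end, controls 3, 5 and 8 and Best1-Nrf2 eyes 3, 6 and 8. In 5 of these 6, all but Best1-Nrf2 eye 8, the 10 most abundant genes took 18.3% to 22.1% of counts, beside 9.51% to 14.3% in the other 12 libraries. Genes at the high end of the axis included the small RNA *Rn7sk* and the pseudogene *Rps25-ps1*, and those at the low end the surface epithelium genes *Krt12*, *Krt78*, *Dsg1a* and *Slurp1*, all named after the values were seen. The part of these features in the levels of *Stra6*, *Rdh11* and *Rdh10* was not tested. *Stra6* was 130 to 307 CPM in these 6 libraries and 389 to 1923 CPM in the other 12, with no overlap. *Rdh11* parted in the same way within controls (21.4 to 69.1 against 75.5 to 168 CPM) and within Best1-Nrf2 eyes (25.7 to 47.2 against 54.2 to 72.6 CPM). *Rdh10* did so in controls only (311 to 991 against 1020 to 2759 CPM). For *Rpe65* the libraries overlapped in both groups. The axis was drawn from these same libraries and cut at its 6 highest, and the share of all genes tested that parted at this cut was not counted. With this axis as a covariate the same 6 genes passed the test, and without mice 3, 5, 6 and 8 the genes that passed were *Rpe65*, *Lrat*, *Rlbp1* and *Rgr*. Both were chosen after the data had been seen.

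**Figure D5:**
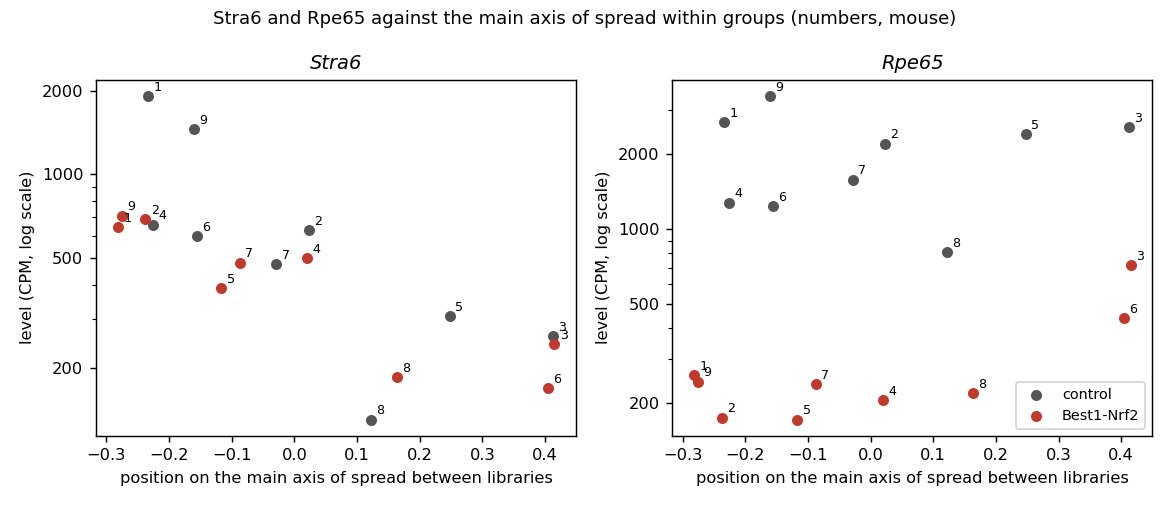
Level of *Stra6* and *Rpe65* (CPM, log axis) against the position of each library on the main axis of spread within groups, with the number of the mouse beside each point. *Stra6* is at 130 to 307 CPM in the 6 libraries at the right and higher in the other 12, while *Rpe65* is parted by group.

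The other genes of retinoid handling were counted from 4 lists. Of 12 genes of retinol transport and storage tested, 3 were higher and 0 were lower. *Bco1*, a carotenoid-cleaving oxygenase of the same enzyme family as RPE65, went from 0.983 ± 0.395 CPM in controls to 17.9 ± 7.03 CPM with Best1-Nrf2 (SD, n = 9 each; log2 fold change 4.16, SE 0.30, edgeR adjusted p = 1.1e-05). *Lpl*, lipoprotein lipase, went from 122 ± 35.2 to 554 ± 212 CPM (log2 fold change 2.16, SE 0.23, adjusted p = 0.000182). *Rbp4*, the carrier of retinol in blood and the ligand of STRA6, went from 2.57 ± 1.24 to 12.5 ± 3.11 CPM (log2 fold change 2.40, SE 0.34, adjusted p = 0.00128). All 3 were higher in 9 of 9 mice. With the rod and cone marker average as a covariate none of the 3 passed (*Bco1* 3.54, adjusted p = 0.0693; *Rbp4* 2.92, adjusted p = 0.177; *Lpl* 1.62, adjusted p = 0.194).

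Of 6 genes of the photoreceptor side of the cycle, 3 were lower, the interphotoreceptor retinoid-binding protein *Rbp3* (-3.17) and the cone opsins *Opn1sw* (-5.94) and *Opn1mw* (-4.68). They are photoreceptor genes, and both opsins are also among the 11 cone markers counted here. Of 14 other retinol and retinal oxidoreductases 0 passed edgeR's test, with 4 at an unadjusted p under 0.05. Of 13 genes of retinoic acid synthesis, breakdown and reception 0 passed, with 0 at an unadjusted p under 0.05. Among 7 regulators listed for visual cycle genes only *Crx* passed (-3.38), and it is a photoreceptor factor. *Otx2* (-0.26, adjusted p = 0.624), *Mitf* (-0.25, adjusted p = 0.697) and *Sox9* (0.00, adjusted p = 0.999), factors of RPE gene expression named here after their values were seen, did not pass.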

How the data were processed

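Purified eyecup RNA of 9 Best1-Nrf2 and 9 control eyes was sequenced. Per the study's methods, the authors used STAR and featureCounts on mm10 with transcripts of Ensembl release 91, and in parallel Salmon (0.8.1 in the submitters' processing notes) with tximport. The deposited table holds whole-number counts per gene, which were taken to be rounded expected counts. That unit was inferred from the values, and which counter made them is not given in the sources used here. No molecular identifiers are described, and PCR copies cannot be told from separate molecules. Errors and tests rest on the spread between mice. The study's methods give fewer pairs for this comparison, and all 9 labelled pairs were used. Of 47729 gene IDs 47224 had a symbol. Gene positions are from GENCODE mouse release 21 (GRCm38).

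Genes were kept by filterByExpr, scaled by TMM and tested with edgeR 4.0.16 (R 4.3.3) by quasi-likelihood, with mouse as a block and Benjamini-Hochberg adjustment at 0.05. Log2 CPM had a prior count of 2. The code was tested on simulated data. The labels number the individual of each eye, and these numbers paired the eyes. With group means removed, fellow eyes correlated with a median r of 0.16 (range, -0.61 to 0.77). Over 72 same-group library pairs the lowest chi-square per degree of freedom was 49.5, so none was a duplicate. Alternatives were other scalings, filters and thresholds, no mouse block, marker covariates, single mice left out, limma 3.58.1 and DESeq2 1.42.0.

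Genes named were *Nfe2l2*, the 9 members, every other listed retinoid gene past the threshold, up to 6 RPE markers and regulators past it, and the 5 genes most correlated with *Rpe65*, of which 1 is not reported here. The rod markers past the threshold were named too, after their values were seen. Members and lists were chosen with earlier results of these data known. No RefSeq promoter was matched for *Rdh10*.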

Additional observations from a re-analysis of the deposited data

Results flagged for a closer look

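A sample far from the rest of its group was looked for in 26 groups of 9 values, with Dixon's ratio at the 95% level. It was found in 5, where chance flags about 1 in 20 groups, or 1.3 here. For *Rdh11*, control 8 was at 4.43 log2 CPM, with the nearest other control at 5.92, and Best1-Nrf2 eye 8 was at 4.69 log2 CPM, with the nearest other at 5.44. Control 8 was also low in the mean of the RPE markers (6.38 log2 CPM, nearest other 7.54) and high in *Nfe2l2* (7.06 log2 CPM, nearest other 6.60). Best1-Nrf2 eye 6 was high in the mean of the rod and cone markers (3.40 log2 CPM, nearest other 1.83), and mouse 6 had the smallest fall of *Rpe65*, *Rlbp1* and *Rgr*. Within its group that eye also had the highest mean of the Müller markers (7.59 log2 CPM, beside 7.54 in eye 3). Its mean of the RPE markers was the lowest of the group (6.78 log2 CPM, beside 6.79 in eye 8). The cause of these values was not tested.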

How the results depend on the processing

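*Rpe65*, *Lrat* and *Rlbp1* passed in 21 of 22 alternatives each, *Rgr* in 17, *Rdh5* in 11 and *Rdh10* in 9, and *Rdh11* passed in 5. With the photoreceptor covariate the count of visual cycle genes lower was 0, that of other retinoid genes called 0 (6 in the fit as reported) and that of all genes called 17 (806 as reported), and *Rrh* turned to 0.78 (adjusted p = 0.452). With the RPE marker covariate 3 visual cycle genes were lower and *Rrh* was at 0.02 (adjusted p = 0.988). With 1 mouse left out at a time, 3 to 7 visual cycle genes were lower, with 3 without mouse 1, 2 or 7. All genes called numbered 540 to 1046 in those fits, 1426 with limma voom, 1478 with DESeq2 and 494 without mice 3, 5, 6 and 8. Without the replicate block, 5 visual cycle genes were lower and 742 genes were called, and *Rdh10* did not pass (-0.86, adjusted p = 0.238), so the pairing of eyes changed that call among the 9 genes. The pairs that differed numbered 18 to 28 with a mouse left out, and 5 to 7 neighbours differed with a control eye left out. The cause of these shifts was not tested. The 9 genes had at least 21.4 CPM in every library.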
